A study of Mus musculus with 167 samples.

Results

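The transcripts described here are those of 49 genes that act in the G2 phase of the cell cycle and in mitosis, measured in mouse liver during phenobarbital dosing. They were chosen by name, as probe sets of the array annotated to a member gene, and for each gene the probe set with the highest mean over all arrays was used. All 49 were on the array, among 18193 genes with an annotated probe set. Such RNA is scarce in resting liver. Of the 49, 20 lay above their own array's median on fewer than 3 arrays, which left 29 members among 12622 genes in the test. The members that did not pass are called dim. Several members passed only through treated livers, such as Aurka, above the median on 0 control and 6 treated arrays, or Birc5, on 0 control and 3 treated arrays. The count over all 49 members, in a fit of all 18193 genes with no filter, is therefore given with each main count of the 29 tested members.

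RNA came from frozen, powdered liver of male C57BL/6 mice on Affymetrix arrays, 1 array per animal. Wild-type mice, mice lacking the nuclear receptors CAR and PXR (CAR/PXR knockout) and mice carrying the human receptors (humanized CAR/PXR), drank water with phenobarbital or, as controls, without it. The dose (0.05%, wt/vol) and age (9 to 11 weeks) are those the protocol text gives for the main treatment and the 13-week time course. It names lower doses and a start at 8 weeks as well, and the samples carry no dose label, so both values are read from that text. Dosing lasted 1, 7, 14, 28 or 91 days, and day 119 followed 4 weeks of recovery. The 36 groups of genotype, treatment and day held 3 to 5 animals. Values are log2 levels, a difference is phenobarbital minus control on the log2 scale of the fit with its standard error (SE) after ±, and adjusted p-values are limma's, two-sided and adjusted over all genes tested in that contrast. Calls were made at an adjusted p under 0.05. The series asks how liver cell cycle transcripts respond to phenobarbital when the human receptors stand in for the mouse ones.

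Phenobarbital activates CAR indirectly, and CAR drives both the induction of drug-metabolising genes and a wave of hepatocyte division in mice. A dividing cell copies its DNA in S phase, then in G2 builds up cyclins A and B with their kinase CDK1, and in mitosis condenses the chromosomes, attaches them to the spindle through kinetochores, waits at the spindle checkpoint, separates them once the anaphase-promoting complex is switched on, and pinches in 2 by cytokinesis. Most genes for these steps are silent in resting cells and are transcribed together late in the cycle. In resting cells the DREAM complex represses them, and in dividing cells B-MYB with the MuvB core and then FOXM1 activate them, at promoter elements named the cell cycle genes homology region (CHR) and, through the factor NF-Y, at CCAAT boxes.

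The promoters of the members are shown because such promoters are known to carry these elements. In RefSeq windows of 300 bases (250 before and 50 after the annotated start, build GRCm38.p6), 39 members were found with 41 windows. The letters TTTGAA or TTCGAA, on either strand, stood for the CHR, and CCAAT on either strand for the CCAAT box. The searches were separate, so that matches may overlap. CHR letters were found in 31 of the 41 member windows (75.6%) against 19.2% of all 32851 windows, CCAAT in 75.6% against 37.4%, and both in 68.3% against 7.5%. At least 2 CCAAT matches were found in 51.2% of member windows and in 11.7% of all windows. The 7 sequences below are the 120 bases before the start of members on which the results turn, in the direction of transcription, with matches to either set of letters in capitals.
Ccnb2 chr9:70421555-70421674 (-): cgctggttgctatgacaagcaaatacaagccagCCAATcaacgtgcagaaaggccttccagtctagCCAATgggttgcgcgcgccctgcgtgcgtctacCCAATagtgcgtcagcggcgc
Cdk1 chr10:69352913-69353032 (-): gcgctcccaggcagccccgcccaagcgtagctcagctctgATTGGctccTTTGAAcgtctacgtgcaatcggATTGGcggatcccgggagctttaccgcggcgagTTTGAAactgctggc
Cdca3 chr6:124830056-124830175 (+): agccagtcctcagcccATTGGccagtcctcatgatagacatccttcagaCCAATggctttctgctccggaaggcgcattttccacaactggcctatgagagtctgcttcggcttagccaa
Cdc20 chr4:118437344-118437463 (-): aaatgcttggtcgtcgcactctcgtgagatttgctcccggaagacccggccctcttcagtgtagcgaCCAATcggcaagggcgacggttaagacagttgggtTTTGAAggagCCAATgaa
Ect2 chr3:27153879-27153998 (-): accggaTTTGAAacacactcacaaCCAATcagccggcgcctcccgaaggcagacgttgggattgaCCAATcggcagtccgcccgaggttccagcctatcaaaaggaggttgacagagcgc
Mki67 chr7:135716380-135716499 (-): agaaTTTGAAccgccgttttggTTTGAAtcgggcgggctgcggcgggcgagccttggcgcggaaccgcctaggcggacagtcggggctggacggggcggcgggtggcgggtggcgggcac
Birc5 chr11:117849117-117849236 (+): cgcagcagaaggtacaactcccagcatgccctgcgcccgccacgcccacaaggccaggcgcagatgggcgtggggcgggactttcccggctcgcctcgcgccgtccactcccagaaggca
Ccnb2 held 3 CCAAT boxes at -87, -54 and -21 from the start, and its CHR letters lay outside the stretch shown, at -167 and 5. Cdk1 had CHR letters and CCAAT (as ATTGG on the strand shown) close together, and Cdc20 had CHR letters next to the start. Mki67 held CHR letters at -116 and -98, with its CCAAT matches further upstream. Birc5 held 0 matches to either in the whole window, although it was among the members with the largest differences on day 7. Of the windows of members called higher in wild-type mice on day 7 (16 windows, fit with no filter) 62.5% held CHR letters, against 84.0% of the other 25 member windows. The letters are thus shared by members whether or not they were called.

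The groups carried the receptor genotypes of their labels. Nr1i3, the mouse CAR gene, lay between 7.74 and 8.91 in wild-type livers, between 4.67 and 5.38 in knockout livers and between 4.80 and 5.46 in humanized livers. Nr1i2, the mouse PXR gene, ranged from 6.91 to 8.02, from 3.33 to 4.01 and from 3.34 to 4.19 in the same order. The human receptors were not measured by these probe sets. On day 7 the CAR target Cyp2b10 stood at 13.14 ± 0.11 (SD, n = 4) in treated against 6.14 ± 0.25 (SD, n = 4) in control wild-type livers, and at 12.79 ± 0.10 (SD, n = 4) against 8.07 ± 0.35 (SD, n = 5) in humanized livers. In the knockout it stood at 5.79 ± 0.40 (SD, n = 4) against 5.57 ± 0.51 (SD, n = 3). Treated humanized animals 6026 and 6030 of day 119 had nearly identical arrays and were counted as 1 sample. Treated knockout arrays 4019 (day 28) and 4024 (day 91) were also nearly identical though labelled for different days, and knockout results on those days are given with and without them.

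On day 7 of phenobarbital the mitotic programme was raised in wild-type and in humanized livers. In the knockout no member passed the test, and 0.0158% of tested genes were called. Without the filter, 20 of the 49 members rose and 0 fell in wild-type livers, against 1.48% of all genes called higher. The largest rises were those of cyclin B2 (Ccnb2, 3.63-fold) and of the cytokinesis factor Ect2 (3.45-fold). In humanized livers 17 of the 49 rose and 0 fell, against 1.82% of all genes, again led by Ccnb2 (2.50-fold) and Ect2 (2.49-fold). Of the 29 tested members 12 rose in wild-type and 12 in humanized mice, against 2.11% and 2.82% of all tested genes, while 0 fell (0.610% and 2.02% of tested genes fell). In all, 46 of 49 differences were above 0 in wild-type and 45 in humanized livers, with medians of 0.40 and 0.31, while the median of all genes was near 0. Leaving out 1 animal at a time gave 14 to 23 called members of 49 in wild-type and 13 to 17 in humanized mice. In bulk liver, more dividing cells and more of each RNA per dividing cell cannot be told apart.

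The rise was seen in each treated animal on day 7. The mean level of the 49 members was 5.30, 5.42, 5.74 and 5.32 in the 4 treated wild-type livers, against 4.82 to 5.03 in the 4 controls. In humanized livers it was 5.23, 5.36, 5.38 and 5.15 in the 4 treated, against 4.82 to 4.94 in the 5 controls, so that treated and control animals did not overlap in either genotype. In the knockout the 4 treated livers had 5.03, 4.88, 4.93 and 4.94 against 4.86 to 4.91 in 3 controls. By gene, every treated liver lay above every control for 24 of the 49 members in wild-type mice, which held for 4.10% of all genes, and for 22 members in humanized mice, which held for 3.40% of all genes. The animal with the highest mean, wild-type animal 2008, exceeded every control of its day in 43 of the 49 members, and the lowest treated wild-type animal did so in 31.

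**Figure D1:**
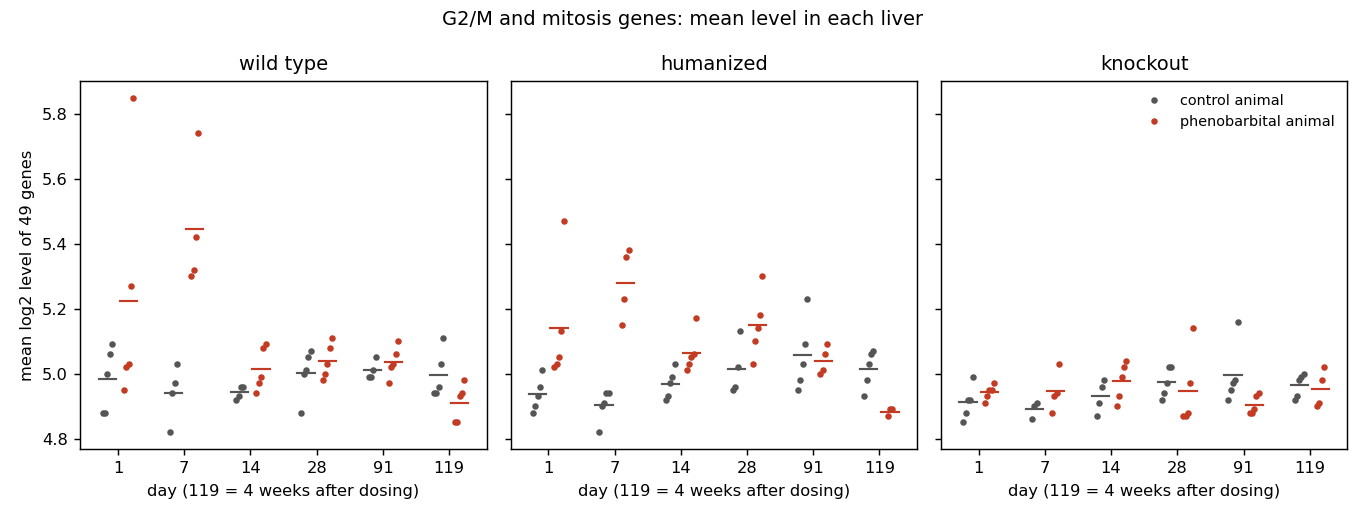
Mean log2 level of the 49 G2/M and mitosis genes in each liver (y axis) by day (x axis), in panels for wild-type, knockout and humanized mice. Each point is 1 animal (controls grey, phenobarbital red) and bars are group means. On day 7 all treated wild-type (5.30 to 5.74) and humanized (5.15 to 5.38) livers lie above their controls, and on day 1 single treated animals at 5.85 and 5.47 stand above the rest.

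Among the mitotic kinases and cyclins, the engine of entry into mitosis, 6 of 10 members rose on day 7 in wild-type and 7 of 10 in humanized livers. Ccnb2, cyclin B2, stood at 5.36, 5.91, 7.04 and 6.18 in treated wild-type livers against 4.87, 4.21, 3.65 and 4.33 in controls, a difference of 1.86 ± 0.23 (adjusted p = 1.39e-10). In humanized livers Ccnb2 stood at 5.43, 5.36, 5.96 and 5.04 against 3.97, 4.13, 4.04, 4.26 and 4.22, a difference of 1.32 ± 0.22 (adjusted p = 3.6e-06). The lowest treated liver lay above the highest control in both genotypes. In the knockout treated livers had 4.37, 4.20, 4.01 and 4.29 and controls 4.03, 3.95 and 4.00, and the difference of 0.22 ± 0.25 did not pass (adjusted p = 0.951).

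Cdk1, the kinase that cyclins A and B activate, stood at 6.84, 6.98, 7.49 and 6.82 against 6.57, 6.35, 6.33 and 6.04 in wild-type controls, a rise of 0.71 ± 0.17 (adjusted p = 0.00271). Without animal 2008, the highest, the adjusted p was 0.0778. In humanized livers Cdk1 stood at 6.83, 7.15, 7.30 and 6.49 against 6.26, 6.09, 6.28, 6.04 and 6.21, a rise of 0.76 ± 0.16 (adjusted p = 0.000399). Its treated and control livers did not overlap in either genotype, while in the knockout they did, at 6.59, 6.42, 6.34 and 6.26 against 6.34, 6.15 and 6.29.

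Ccna2, cyclin A2, which acts from S phase into mitosis, stood at 6.48, 6.54, 6.56 and 6.22 in wild-type livers against 5.83, 5.25, 5.15 and 5.71, and 6.17, 6.25, 6.31 and 6.07 in humanized livers against 5.08, 5.76, 5.07, 5.42 and 5.38. The rises were 0.97 ± 0.16 (adjusted p = 5.54e-06) and 0.86 ± 0.16 (adjusted p = 3.55e-05). Nek2, a centrosome kinase, rose by 0.76 ± 0.13 and 0.65 ± 0.12. The dim members Pbk, a mitotic kinase, and Cdkn3, a phosphatase acting on CDKs, rose by 1.00 ± 0.18 and 0.65 ± 0.09 in wild-type and by 0.79 ± 0.17 and 0.45 ± 0.09 in humanized livers in the fit with no filter.

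Plk1 and Aurka, the kinases of centrosome and spindle assembly, had smaller differences. Plk1, polo-like kinase 1, stood at 4.77, 5.27, 5.50 and 4.92 in treated wild-type livers against 5.09, 4.87, 5.10 and 4.90, groups that overlap, with a difference of 0.13 ± 0.13 (adjusted p = 0.777). In humanized livers it stood at 5.22, 5.29, 5.31 and 5.01 against 4.69, 4.84, 4.61, 5.02 and 4.67 and rose by 0.44 ± 0.12 (adjusted p = 0.0162). That call was lost when animal 6006, 6007, 6008 or 5008 was left out, with adjusted p from 0.0542 to 0.0569. Aurka, Aurora A, differed by 0.37 ± 0.12 (adjusted p = 0.0823) and 0.35 ± 0.12 (adjusted p = 0.0557) on day 7. Cks2, a small CDK-binding protein and the most abundant member at a mean of 9.74, differed by -0.01 and 0.02.

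Neither transcription factor of the programme passed the test on day 7. Foxm1, which activates late cell cycle genes, stood at 5.90, 6.20, 5.78 and 6.15 in treated wild-type livers on day 7 against 5.85, 5.81, 5.73 and 6.06, a difference of 0.14 ± 0.08 (adjusted p = 0.48). In humanized livers it stood at 5.95, 6.01, 5.90 and 5.88 against 5.91, 5.84, 5.98, 5.88 and 5.80, a difference of 0.05 ± 0.08 (adjusted p = 0.793). Treated and control groups overlapped in both. The dim Mybl2, which encodes B-MYB, differed by 0.06 ± 0.08 in wild-type and by -0.02 in humanized livers. Over the dosing days Foxm1 rose by 0.10 ± 0.03 (adjusted p = 0.0157) in wild-type livers and differed by -0.01 in humanized livers.

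Of the 7 spindle checkpoint and anaphase genes, 4 rose in each genotype on day 7. Cdca3, which helps to trigger mitotic entry, stood at 5.88, 6.14, 6.90 and 6.24 against 5.21, 5.12, 5.24 and 5.17 in wild-type livers, a rise of 1.10 ± 0.15 (adjusted p = 8.89e-09). In humanized livers Cdca3 stood at 5.90, 5.98, 6.18 and 5.75 against 4.87, 5.41, 5.00, 5.04 and 4.90, a rise of 0.91 ± 0.14 (adjusted p = 1.26e-06). Neither genotype showed overlap. The other probe sets of Cdca3 differed by 0.04 and 0.18 in wild-type and by 0.09 and 0.08 in humanized livers. None of these passed when each probe set was tested on its own. Mad2l1, the checkpoint protein MAD2, stood at 7.04, 7.23, 7.70 and 7.10 against 6.60, 6.59, 6.31 and 6.43 in wild-type livers and rose by 0.78 ± 0.11 (adjusted p = 3.78e-08), and in humanized livers it rose by 0.55 ± 0.11 (adjusted p = 0.000131).

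Ube2c, the ubiquitin-conjugating enzyme of the anaphase-promoting complex, was dim and rose by 0.95 ± 0.19 and 0.74 ± 0.18 in the fit with no filter. The checkpoint kinase Bub1 was also dim. It stood at 3.28, 3.31, 3.83 and 3.33 in treated wild-type livers against 3.14, 2.99, 3.10 and 2.91, a rise of 0.40 ± 0.11 (adjusted p = 0.0271), while in humanized livers the difference was 0.18. For the checkpoint kinase Ttk the genotypes stood the other way round, with 0.38 ± 0.14 (adjusted p = 0.183) in wild-type and a rise of 0.61 ± 0.13 (adjusted p = 0.000932) in humanized livers.

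The centromere and kinetochore genes, which join chromosomes to the spindle, varied among themselves. Of 6 members, 2 rose in wild-type livers on day 7, the dim Cenpe, a kinetochore motor (0.54 ± 0.12), and Nuf2, of the NDC80 complex (0.65 ± 0.14), and 0 rose in humanized livers. Ndc80 differed by 0.16 and 0.15. Spc25, a partner of NUF2 in the same complex, differed by 0.32 ± 0.20 and 0.31 ± 0.19 on day 7 and then fell on other days, as described below.

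In the chromosomal passenger complex, which corrects attachments and prepares cytokinesis, Birc5 (survivin) had the largest difference. It stood at 4.98, 5.06, 6.13 and 4.79 in treated wild-type livers against 4.06, 3.73, 3.57 and 3.92, a rise of 1.42 ± 0.20 (adjusted p = 3.23e-08), and at 4.68, 4.86, 5.17 and 4.24 in humanized livers against 3.53, 3.92, 4.10, 4.11 and 3.77, a rise of 0.85 ± 0.19 (adjusted p = 0.00168). No treated liver overlapped with a control. In the knockout, treated livers with 4.33, 3.72, 4.04 and 4.00 overlapped with controls at 3.52, 3.78 and 3.52, and the difference of 0.42 ± 0.22 did not pass (adjusted p = 0.851).

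The enzyme of that complex, Aurora B (Aurkb, dim), stood at 3.41, 3.51, 3.29 and 3.24 in treated wild-type livers on day 7 against 3.12, 2.92, 2.93 and 3.19. Its difference of 0.32 ± 0.10 did not pass in the fit with no filter (adjusted p = 0.0617), nor did that of 0.22 in humanized livers. The other Aurkb probe set, tested on its own, rose by 0.36 in wild-type livers (adjusted p = 0.00927). In humanized livers it differed by 0.13 (adjusted p = 0.557). Incenp, the scaffold, rose by 0.51 ± 0.14 (adjusted p = 0.0175) in wild-type livers, but on 1 of its 5 probe sets only, and the call was lost when animal 1006, 1008, 1010 or 2008 was left out (adjusted p from 0.0504 to 0.19). Cdca8 (borealin) differed by 0.48 ± 0.16 (adjusted p = 0.0996) and 0.37.

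Of the 11 spindle motors and microtubule proteins, 2 rose in each genotype. The dim Kif20a, a motor of the central spindle, rose by 0.58 ± 0.12 and 0.51 ± 0.11. Nusap1 rose in wild-type livers (0.65 ± 0.16) and Prc1, which bundles microtubules at the midzone, in humanized livers (0.34 ± 0.10, adjusted p = 0.0301, lost without animal 6006, 6007, 6010, 5006 or 5009). The motors Kif23 and Kif2c were above the median on every array and differed by 0.07 and -0.03 in wild-type and by -0.04 each in humanized livers. The group median was 0.14 in wild-type and 0.25 in humanized livers, against 0.68 and 0.55 for the kinases and cyclins.

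The 4 cytokinesis genes held the second-largest rise. Ect2, the exchange factor that switches on RhoA at the cleavage furrow, stood at 4.89, 4.99, 5.77 and 5.59 in treated wild-type livers on day 7 against 3.85, 3.57, 3.29 and 3.38, a rise of 1.79 ± 0.25 (adjusted p = 2.85e-08). Humanized livers had Ect2 at 4.91, 5.48, 5.05 and 4.92 against 3.74, 3.89, 3.63, 3.72 and 3.89, a rise of 1.32 ± 0.24 (adjusted p = 4.3e-05). The lowest treated value lay above the highest control in each genotype. Shcbp1, a midbody protein, stood at 5.23, 5.45, 6.18 and 5.30 against 4.72, 4.69, 4.16 and 4.60 in wild-type livers and rose by 1.00 ± 0.18 (adjusted p = 2.4e-05).

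In humanized livers Shcbp1 rose by 0.55 ± 0.17 (adjusted p = 0.0368), a call lost with no filter (adjusted p = 0.0503) and without animal 6006, 6007, 6008, 5006, 5008, 5009 or 5010 (0.0611 to 0.148). Anln (anillin, dim), the scaffold of the contractile ring, rose by 0.46 ± 0.13 and 0.41 ± 0.12. Racgap1, also dim and a partner of ECT2, differed by 0.26 and 0.23 and did not pass in either genotype.

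Among chromosome structure genes and the proliferation marker, Mki67 rose in both genotypes on day 7. Mki67, which encodes the Ki-67 antigen that coats mitotic chromosomes, stood at 5.44, 5.66, 6.62 and 5.30 against 4.87, 4.62, 4.32 and 4.77 in wild-type livers (a rise of 1.11 ± 0.23, adjusted p = 0.000326). Humanized livers had Mki67 at 5.39, 5.63, 5.62 and 5.14 against 4.18, 4.92, 4.56, 4.50 and 4.82 (a rise of 0.85 ± 0.22, adjusted p = 0.00684). Treated and control livers did not overlap, while in the knockout they did, at 4.73, 4.33, 4.87 and 4.67 against 4.49, 4.57 and 4.62.

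Top2a, the topoisomerase that untangles sister chromatids, stood at 6.00, 5.75, 5.60 and 5.05 in treated wild-type livers against 4.93, 5.05, 4.63 and 5.11. These groups overlapped, and the difference of 0.67 ± 0.20 passed at an adjusted p of 0.0408 with the filter and not without it (0.0522), and with 1 of 6 animals (1006, 1007, 1008, 2006, 2007 or 2008) left out it ran from 0.0562 to 0.216. In humanized livers, at 5.26, 5.45, 5.73 and 4.96 against 4.71, 5.03, 5.28, 5.11 and 4.93, the difference was 0.34 (adjusted p = 0.377). The condensin genes Smc2, Smc4 and Ncapg differed by 0.40, 0.24 and 0.25 in wild-type livers, and none passed.

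**Figure D2:**
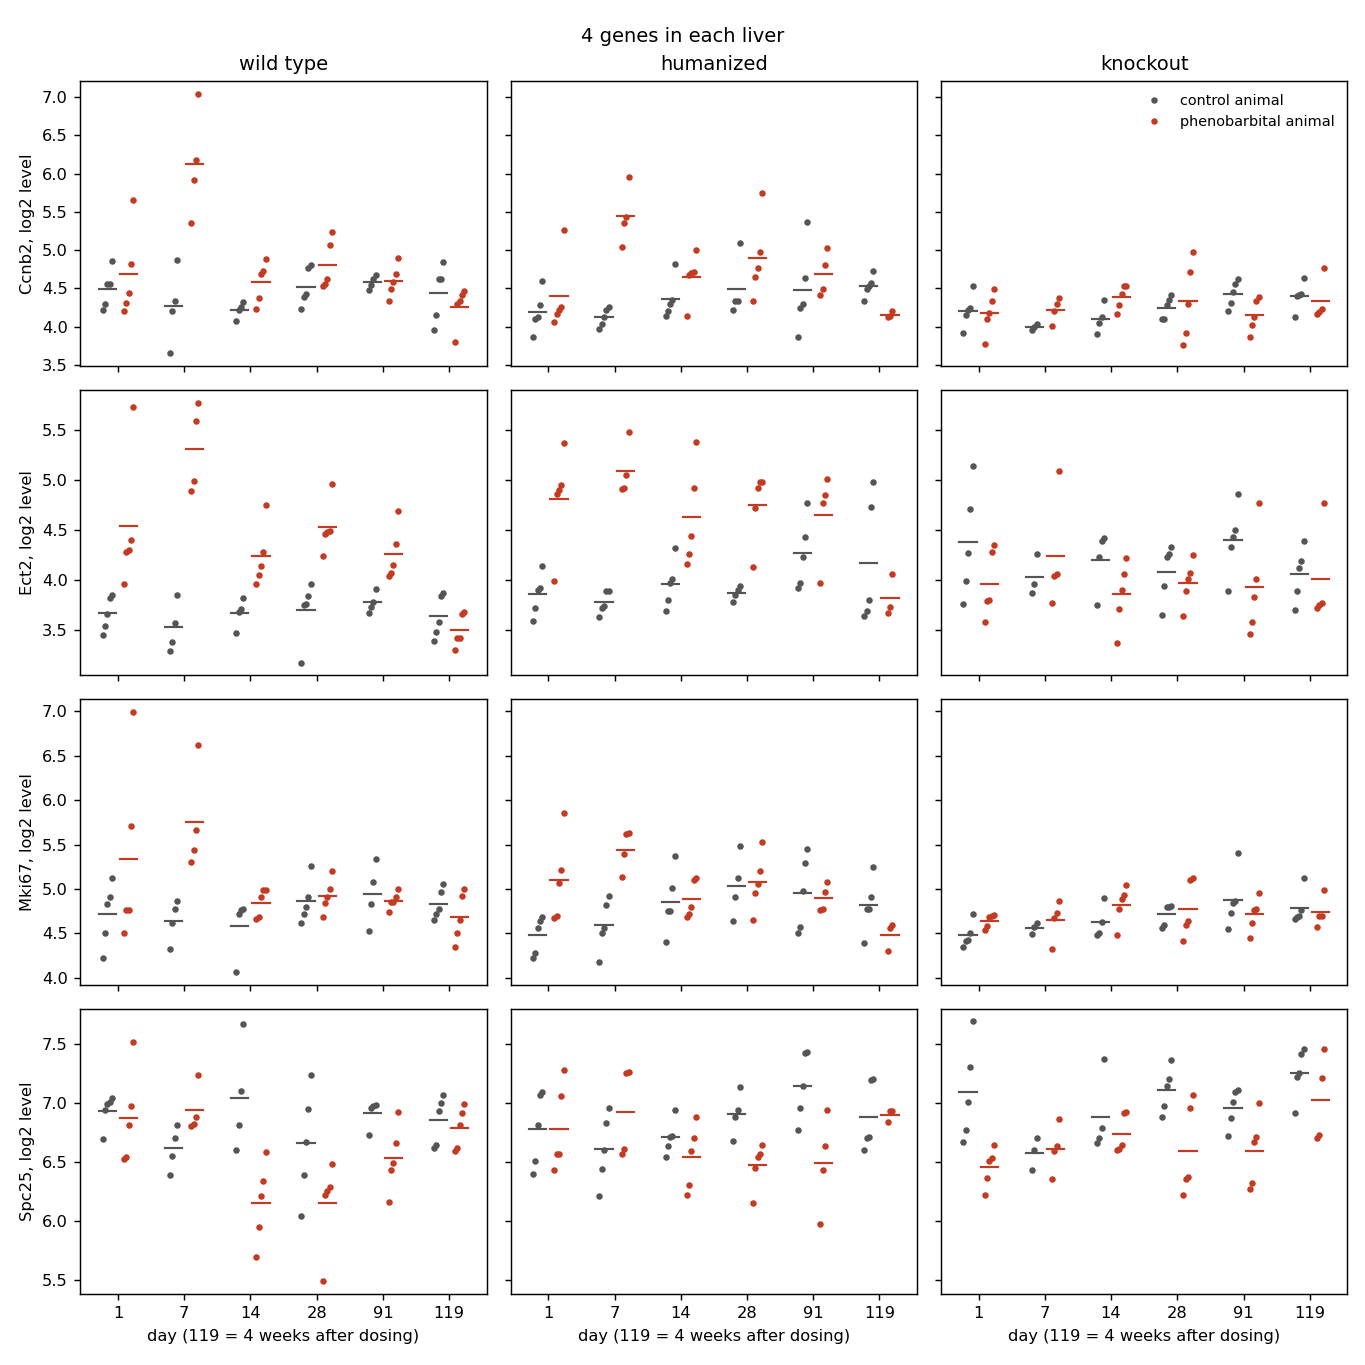
Log2 levels of Ccnb2, Ect2, Mki67 and Spc25 in each liver (y axis) by genotype and day (x axis). Each point is 1 animal, controls in grey and phenobarbital in red. Ccnb2 is raised on day 7 (5.36 to 7.04 in wild type), Ect2 is also above its controls on day 28 in both receptor-bearing genotypes, and Spc25 is below its controls on day 14 in wild type (5.69 to 6.58 against 6.60 to 7.67).

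On day 1 the response was uneven between animals. Without the filter 12 of 49 members rose in wild-type livers, against 3.39% of all genes, and 6 in humanized livers, against 2.47%, and 0 fell in either. Of the 29 tested, 8 and 5 rose, against 5.02% and 3.95% of tested genes, and 0 fell, against 6.97% and 7.78%. The median difference over the 49 was 0.21 and 0.20. In wild-type mice this rested on 1 animal: treated animal 2004 had a mean level of 5.85 and exceeded every control in 46 of the 49 members, while the other 4 treated animals had means of 4.95 to 5.27 against controls of 4.88 to 5.09. Without animal 2004 only 1 of the 49 members passed, and 1 of the 29 tested.

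In humanized mice animal 6003 had a mean of 5.47, exceeded every control in 38 members, and left 1 of 49 passing members (2 of the 29 tested) when it was taken out. The call counts also fell to 2 or fewer of 49 without animal 6002, 5001 or 5002. In wild-type mice 3 of the 29 passed without control animal 1003 and 5 without animal 1001 or 2002, and in the fit with no filter the count of 49 ranged from 1 to 19. A fit on the day 1 arrays of 1 genotype alone called 0 of 29 members in wild-type and 1 in humanized mice.

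Ccnb2, the largest rise of day 7 in wild-type livers, did not pass on day 1. It stood at 4.44, 4.82, 4.31, 5.65 and 4.21 in treated wild-type livers on day 1 against 4.29, 4.86, 4.22, 4.56 and 4.55, with only animal 2004 above the controls and a difference of 0.19 ± 0.21 (adjusted p = 0.637). In humanized livers it stood at 4.17, 4.26, 5.26, 4.06 and 4.22 against 4.10, 3.87, 4.13, 4.60 and 4.28, with only animal 6003 above them. The effect on Ccnb2 was larger on day 7 than on day 1 in wild-type mice by 1.67 ± 0.31 (adjusted p = 0.000832), and that on Cdca3 by 0.95 ± 0.20 (adjusted p = 0.01). These were 2 of 29 members, against 0.190% of tested genes, and 2 of 49 with no filter, against 0.110% of all genes. Of the 29, 1 passed without animal 2008. In humanized mice the same contrast called 1 member, Nek2, at 0.66 ± 0.16 (adjusted p = 0.0483), against 0.206% of tested genes, and 0 in the fit with no filter or without any of animals 6001, 6002, 6004, 6005, 6007, 6008, 5003, 5004, 5005, 5006, 5007, 5008 and 5010. The remaining members were not shown to differ between the days.

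Ect2 was the 1 member of 49 for which every treated wild-type liver lay above every control on day 1, which held for 2.61% of all genes. It stood at 4.28, 4.30, 3.96, 5.73 and 4.40 in treated wild-type livers against 3.54, 3.85, 3.82, 3.66 and 3.45, and rose by 0.87 ± 0.23 (adjusted p = 0.00446; 0.116 without animal 2004). In humanized livers it stood at 4.95, 5.37, 4.90, 4.86 and 3.99 against 3.59, 3.72, 3.92, 4.14 and 3.90, and 4 of the 5 treated lay above every control. That rise was 0.96 ± 0.23 (adjusted p = 0.00166).

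Mki67 stood at 4.76, 5.71, 4.76, 6.99 and 4.50 against 4.51, 5.13, 4.22, 4.91 and 4.83 in wild-type livers on day 1, where only animals 2002 and 2004 lay above the controls. Its difference of 0.63 ± 0.20 (adjusted p = 0.0269) fell to an adjusted p of 0.581 without animal 2004. In humanized livers Mki67 stood at 4.70, 5.07, 5.86, 4.67 and 5.21 against 4.56, 4.22, 4.28, 4.69 and 4.64 (0.62 ± 0.20, adjusted p = 0.0286; 0.203 without animal 6003). Top2a rose by 0.78 ± 0.18 in wild-type livers (adjusted p = 0.00108; 0.0628 without animal 2004), from treated values of 5.71, 6.22, 5.19, 6.90 and 5.04 against 4.37, 5.40, 4.86, 5.27 and 5.27. For neither gene did all treated wild-type animals lie above the controls.

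Ccna2 rose by 0.45 ± 0.15 (adjusted p = 0.0295) in wild-type and 0.44 ± 0.15 (adjusted p = 0.0327) in humanized livers on day 1. Without animal 2004 the wild-type adjusted p of Ccna2 was 0.46, and without animal 6003 the humanized one was 0.185. In humanized mice its treated values of 5.57, 5.93, 6.31, 5.73 and 5.69 all lay above controls at 5.40, 5.21, 5.40, 5.54 and 5.47. In wild-type mice, at 5.50, 6.49, 5.72, 7.07 and 5.73 against 5.42, 5.92, 5.27, 5.91 and 5.76, animals 2002 and 2004 alone exceeded the controls. Mad2l1 rose by 0.52 ± 0.10 (adjusted p = 5.77e-05) and 0.31 ± 0.10 (adjusted p = 0.0292), Aurka by 0.35 ± 0.11 in wild-type livers, and Smc2 and Shcbp1 by 0.42 ± 0.13 and 0.53 ± 0.16 there. Without animal 2004 the adjusted p was 0.299 for Aurka, 0.254 for Smc2 and 0.232 for Shcbp1, and without animal 6003 that of Mad2l1 in humanized livers was 0.151. In humanized livers the fifth tested member to rise was Cdca3 (0.39 ± 0.14, adjusted p = 0.0441), which did not pass with no filter (0.0598). Of these, Ccna2, Ect2, Mad2l1 and Mki67 were called in both genotypes, which is 4 of 8 wild-type and 4 of 5 humanized calls.

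Markers of acinar cells of the pancreas, which lies next to the liver, also varied between the day 1 animals. The mean level of 9 listed acinar genes was 9.73 in animal 2004, 7.61 in animal 2002 and 5.68 to 5.73 in the other treated wild-type livers, and 12.70 in animal 6003 against 5.62 to 7.47 in the other treated humanized livers. Wild-type controls 1001 and 1002 of day 1 had acinar levels of 10.23 and 10.67, and mean member levels of 4.88 and 5.09. The other 3 controls of that day had acinar levels of 9.03, 6.11 and 7.52, and member levels of 4.88, 5.06 and 5.00. On day 7 the acinar level was 5.72, 6.74, 6.00 and 8.55 in treated wild-type livers against 5.71 to 5.79 in controls, so that 3 of the 4 treated livers lay above every control. In humanized livers it was 5.63 to 5.73 against 5.57 to 5.87. The part of acinar tissue in the results of days 1 and 7 was not tested.

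After day 7 few members passed the test, Ect2 among them. On day 14, 0 members rose and 2 of 29 fell in wild-type livers, where 8.79% of tested genes were called in either direction, and 2 rose in humanized livers (11.9% of tested genes called). On day 28, 2 rose in wild-type (5.55% called) and 3 in humanized livers (7.70% called). By day 91 the tested members called were 0 in wild-type livers (3 at an unadjusted p under 0.05, 2.13% of genes called) and 1, a fall, in humanized livers (2.19% called). With no filter the fits called 1 of 49 members in wild-type and 3 in humanized livers on day 14 (5.06% and 7.35% of all genes called), then 1 and 4 for day 28 (3.34% and 4.83%), and 0 in both for day 91. The mean level of the 49 members in wild-type mice was 5.01 in treated against 4.94 in control livers for day 14, 5.04 against 5.00 for day 28 and 5.04 against 5.01 for day 91. In humanized mice it was 5.07 and 4.97, then 5.15 and 5.01, then 5.04 and 5.05.

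Ect2 was still raised on day 28 in both genotypes. In wild-type livers it stood at 4.49, 4.48, 4.96, 4.46 and 4.24 against 3.17, 3.75, 3.84, 3.76 and 3.96, a rise of 0.83 ± 0.23 (adjusted p = 0.0119). Humanized livers had Ect2 at 4.72, 4.98, 4.92, 4.98 and 4.13 against 3.90, 3.85, 3.78 and 3.94, a rise of 0.88 ± 0.24 (adjusted p = 0.00986). No treated liver overlapped with a control in either. On day 14 it rose by 0.67 ± 0.23 (adjusted p = 0.0353) in humanized livers and differed by 0.57 ± 0.24 (adjusted p = 0.132) in wild-type livers. On day 91 wild-type treated livers at 4.04, 4.69, 4.15, 4.07 and 4.36 all lay above controls at 3.78, 3.67, 3.73 and 3.91, but the difference of 0.49 ± 0.24 did not pass (adjusted p = 0.332).

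A few other members were called late. Cks2 rose in humanized livers by 0.34 ± 0.10 (adjusted p = 0.0124) on day 14 and by 0.34 (adjusted p = 0.0246) on day 28, and Cdca3 by 0.60 ± 0.14 (adjusted p = 0.0025) on day 28. Nek2 rose by 0.36 ± 0.11 (adjusted p = 0.0406) in wild-type livers on day 28. The count in wild-type livers on day 28 was 0 without control animal 1016 or treated animal 2018, and 1 without animal 1018, 1019, 2019 or 2020. In humanized livers on day 14 it was 1 without animal 6012, 6015, 5011, 5013 or 5015.

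Spc25 and the centromere histone Cenpa moved the other way. In wild-type livers on day 14 Spc25 stood at 5.95, 6.21, 5.69, 6.34 and 6.58 against 6.81, 6.60, 7.10 and 7.67 in controls, with no overlap, and fell by 0.89 (SE 0.19, adjusted p = 0.000663). Cenpa fell by 0.45 (SE 0.15, adjusted p = 0.0441) in the same comparison, and with no filter, where 1 member passed, that call was lost. On day 14 the count of falls was 1 without animal 1012, 1013, 1014, 2011 or 2012. In humanized livers Spc25 fell by 0.65 (SE 0.19, adjusted p = 0.0451) on day 91, a call lost without animal 6021, 6022, 6025, 5022, 5023 or 5025. It also fell in the knockout on day 1, at 6.36, 6.51, 6.22, 6.64 and 6.53 against 7.69, 7.01, 6.67, 6.77 and 7.30, by 0.64 (SE 0.18, adjusted p = 0.0161; 0.138 without animal 3001 and 0.057 without animal 4003). Over the dosing days it fell by 0.30 (SE 0.09, adjusted p = 0.00296) in wild-type and by 0.33 (SE 0.09, adjusted p = 0.00316) in knockout livers, and the humanized difference was -0.19 ± 0.08 (adjusted p = 0.076). On the brightest probe set of Spc25 the fall thus passed in the mice without either receptor too. Its other probe set differed over the dosing days by 0.04 in wild-type, -0.07 in humanized and -0.01 in knockout livers. None of these passed when each probe set was tested on its own (adjusted p = 0.671, 0.298 and 0.911).

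**Figure D3:**
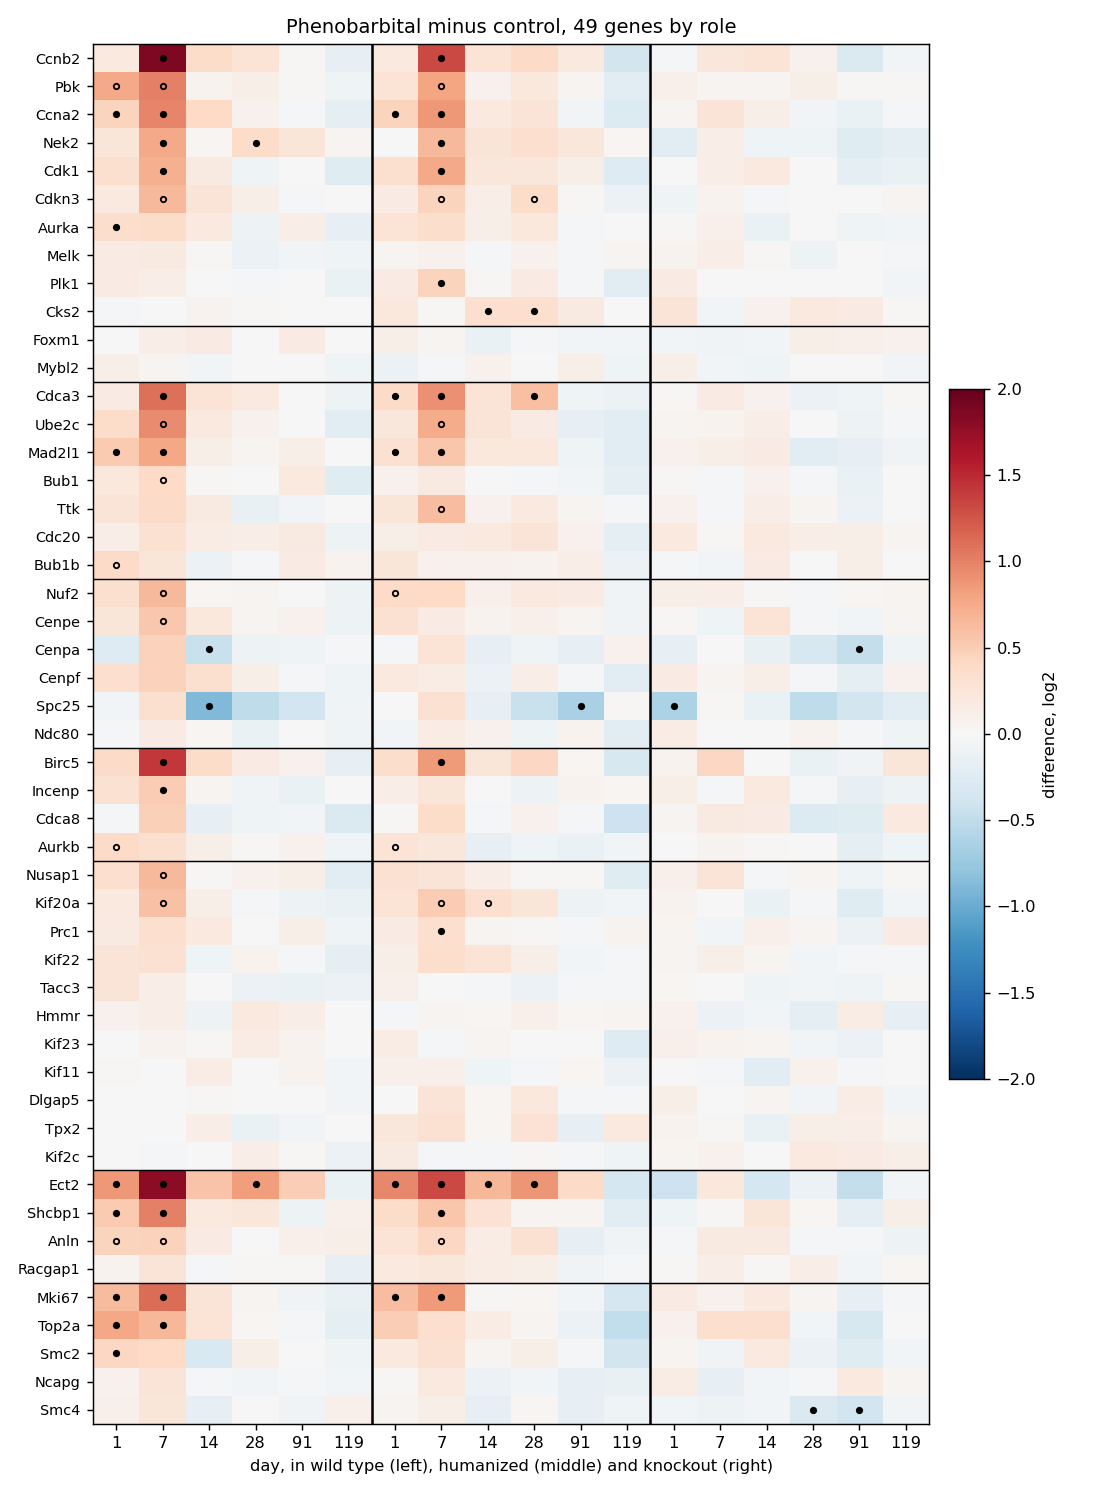
Phenobarbital minus control (log2, colour) for the 49 genes in rows ordered by role and the 18 combinations of genotype and day in columns. Filled dots mark called tested genes and open dots mark dim genes that passed in the fit with no filter. The filled dots gather on days 1 and 7 in wild-type (8 and 12 rises) and humanized (5 and 12 rises) columns, and Ect2 is marked on days 1, 7 and 28 in wild type and on days 1, 7, 14 and 28 in humanized mice.

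After 4 weeks of recovery no member passed the test. On day 119, 0 of 29 tested members were called in wild-type livers (1 at an unadjusted p under 0.05, 0.0238% of tested genes called) and 0 in humanized livers (5 at an unadjusted p under 0.05, 0.214% called), and 0 of 49 in both with no filter. The mean level of the 49 was 4.91 ± 0.06 (SD, n = 5) in treated against 4.99 ± 0.07 (SD, n = 5) in control wild-type livers, and 4.88 ± 0.01 (SD, n = 3) against 5.01 ± 0.06 (SD, n = 5) in humanized livers. The difference was above 0 for 8 of 49 members in wild-type and 9 in humanized mice. Ect2, at 3.42, 3.42, 3.68, 3.30 and 3.66 against 3.58, 3.84, 3.48, 3.87 and 3.39, overlapped with its wild-type controls. In humanized mice Ccnb2, Plk1, Pbk, Cdca8 and Top2a lay lower in all 3 treated samples than in all 5 controls, 5 of 49 against 2.45% of all genes, for example Top2a at 4.50, 4.69 and 4.73 against 4.77 to 5.42, but its difference of -0.50 ± 0.21 did not pass (adjusted p = 0.361).

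Over the 5 dosing days together, 27 of the 49 members rose and 1 fell in wild-type livers with no filter, against 9.21% of all genes called higher, and 25 rose and 0 fell in humanized livers, against 10.9%. Of the 29 tested, 15 rose and 1 fell in wild-type livers, against 11.8% of tested genes higher and 19.7% lower, and 17 rose and 0 fell in humanized livers, against 14.9% and 17.5%. The dosing means were smaller than on day 7, with a median over the 49 of 0.15 and 0.14. In both genotypes Ect2 was first, at 0.91 ± 0.11 (adjusted p = 1.98e-12) and 0.84 ± 0.11 (adjusted p = 2.97e-11), and Ccnb2 second, at 0.54 ± 0.10 and 0.48 ± 0.10. By role, 7 and 9 of the 10 kinases and cyclins rose, 6 and 5 of the 7 checkpoint genes, and 3 and 4 of the 4 cytokinesis genes, against 3 and 3 of the 11 spindle proteins. The called sets with no filter shared 19 members, which is 70.4% of the 27 wild-type and 76.0% of the 25 humanized rises. On day 7 they shared 14, which is 70.0% of 20 and 82.4% of 17.

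In the knockout few members were called on single days. On day 7, 0 of 29 tested members were called (0 at an unadjusted p under 0.05, 0.0158% of tested genes called), and 0 of 49 with no filter. The differences of the 49 ran from -0.16 to 0.42, and none reached 0.5, against 19 members at or above 0.5 in wild-type and 14 in humanized livers. On days 14 and 119, 0 members were called (1 and 0 at an unadjusted p under 0.05), with 0.325% and 0.111% of tested genes called. On days 1, 28 and 91, 1, 1 and 2 members fell and 0 rose, while 8.08%, 5.16% and 3.45% of tested genes were called. With no filter 1, 0 and 2 of the 49 fell. The falls were Spc25 on day 1, the condensin Smc4 on day 28 (-0.29 ± 0.09, adjusted p = 0.0414), and Cenpa and Smc4 on day 91 (-0.48 ± 0.14, adjusted p = 0.0371, and -0.38 ± 0.09, adjusted p = 0.008). Without the nearly identical arrays 4019 and 4024, 0 members were called on day 28 and 1 on day 91. Leaving out 1 other animal gave 0 to 3 on day 28 (0 without animal 3018, 3019, 3020, 4018 or 4020, 2 without 4016 and 3 without 4017) and 1 on day 91 without animal 3021, 3022, 3024, 3025, 4021, 4022 or 4023. Over the dosing days 2 of 49 rose and 3 fell with no filter (5.87% and 6.99% of all genes), and 3 of 29 rose (8.64% of tested genes rose) and 3 fell (11.0% fell). These counts lie near the shares over all genes, so they do not set the members apart. The rises were Cdc20 (0.14 ± 0.04, adjusted p = 0.00927), Cks2 (0.13 ± 0.05, adjusted p = 0.0352) and Kif2c (0.10 ± 0.04, adjusted p = 0.0446; 0.0605 with no filter). The call of Cks2 was lost without any 1 of 11 animals (adjusted p from 0.0517 to 0.0905), and that of Kif2c without any 1 of 22 (0.0506 to 0.0822). The falls were Spc25, Cenpa and Smc4, the last 2 at -0.23 ± 0.07 and -0.18 ± 0.04, and Smc4 was lower on all 3 of its probe sets. The other probe sets of Cenpa differed by 0.01 and 0.07 in the knockout (adjusted p = 0.95 and 0.395). That of Spc25 differed by -0.01 (adjusted p = 0.911), each tested on its own. Among the rises, the other probe sets of Cdc20 differed by 0.23 and 0.03 (adjusted p = 0.133 and 0.839). Those of Kif2c differed by 0.03, -0.00 and -0.05 (adjusted p = 0.755, 0.982 and 0.563), and that of Cks2 by 0.16 (adjusted p = 0.0521). None of these passed.

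**Figure D4:**
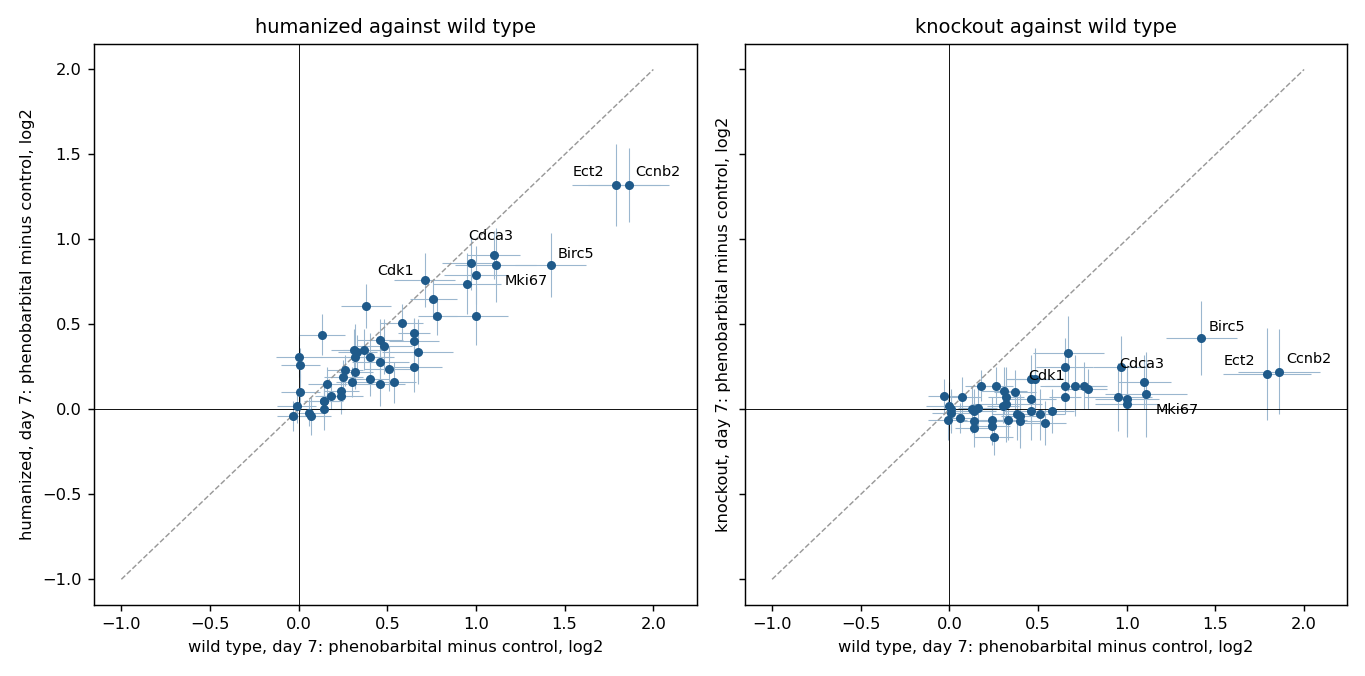
Phenobarbital minus control on day 7 (log2, with SE bars) of the 49 genes in humanized (left) and knockout (right) livers on the y axis against wild-type livers on the x axis. The dashed line marks equal values. In humanized livers Ccnb2 and Ect2 (1.32 each) lie below the line at wild-type values of 1.86 and 1.79, and in the knockout all genes lie at 0.42 or lower.

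The difference in effect between genotypes was tested directly. On day 7 the effect was lower in the knockout than in wild-type mice for 5 of 49 members with no filter, against 0.385% of all genes. Of the tested members, some of which passed the filter through treated arrays, it was lower for 4 of 29, against 0.570% of tested genes: Ccnb2 by -1.64 ± 0.34 (adjusted p = 0.00133), Ect2 by -1.58 ± 0.37 (adjusted p = 0.0111), Cdca3 by -0.94 ± 0.22 (adjusted p = 0.0111) and Mad2l1 by -0.66 ± 0.17 (adjusted p = 0.02). The difference was above 0 for 3 of the 49, with a median of -0.39. The knockout had 3 controls on this day, and the count was 1 without wild-type animal 2008 and 2 without knockout animal 3010, while array quality weights gave 9 and a fit on only these groups gave 0. On day 1 only Ect2 differed, by -1.28 ± 0.32 (adjusted p = 0.0156), against 0.871% of tested genes (1 of 49 with no filter, against 0.533% of all genes), and not without animal 2004 or 3005.

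Over the dosing days the effect was lower in the knockout for 13 of 49 members with no filter, against 3.78% of all genes, and for 10 of 29 tested members, against 5.77% of tested genes. Ect2 (-1.14 ± 0.15, adjusted p = 1.11e-09), Nek2 (-0.43 ± 0.08, adjusted p = 6.1e-06) and Mad2l1 (-0.33 ± 0.07, adjusted p = 0.000121) had the smallest p-values, and Ccnb2, Ccna2, Aurka, Cdca3, Birc5, Shcbp1 and Smc4 followed. The call of Aurka was lost without any 1 of 23 animals (adjusted p from 0.0502 to 0.0731). Smc4 differed by -0.20 ± 0.06, from a fall in the knockout and a wild-type effect of 0.02. Humanized and knockout mice differed in 9 of 49 with no filter, against 3.56% of all genes, and in 7 of 29 tested members, against 5.66% of tested genes, all higher in humanized mice, with Ect2 at 1.07 ± 0.15 (adjusted p = 1.16e-08) and Cdca3 at 0.40 (adjusted p = 0.000585).

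Humanized and wild-type effects were not shown to differ for any tested member. The counts were 0 on day 1 (0 at an unadjusted p under 0.05, 0.111% of tested genes called), 0 on day 7 (1 unadjusted, 0.0951% called) and 0 over the dosing days (3 unadjusted, 1.88% called). On day 7 the humanized effect was the larger for 9 of the 49 members, with a median difference of -0.11. Birc5 differed by -0.57 ± 0.28 and Ccnb2 by -0.54 ± 0.32 (adjusted p = 0.997 each). A p-value that misses the threshold does not show equal responses.

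Cdc20, which activates the anaphase-promoting complex, shows how far the chosen probe set matters. Its brightest probe set stood at 6.31, 6.50, 6.76 and 6.44 in treated wild-type livers on day 7 against 6.16, 6.26, 6.21 and 6.16, a difference of 0.30 ± 0.09 that did not pass (adjusted p = 0.056). A second (named with the suffix x_at, as the brightest is) stood at 6.68, 7.13, 8.18 and 7.14 against 5.61, 5.04, 4.48 and 5.19, a difference of 2.20. Another (suffix at) had 5.31, 6.08, 6.84 and 6.24 against 4.79, 4.39, 4.32 and 4.53, a difference of 1.61. Both passed when each probe set was tested on its own (adjusted p = 4.38e-13 and 6.59e-15). In humanized livers the second stood at 6.86, 6.88, 6.92 and 6.20 against 4.79, 4.87, 4.78, 4.92 and 4.72, a difference of 1.90 that passed (adjusted p = 5.7e-11). In the knockout it stood at 5.44, 4.93, 5.16 and 4.74 against 4.68, 4.45 and 4.96. Treated and control livers did not overlap on that probe set except in the knockout. The missed call of Cdc20 on day 7 is thus a result of the brightest probe set alone. On that one, too, every treated liver lay above every control on day 7 in wild-type and humanized mice. Over the dosing days it rose by 0.18 and 0.16 (adjusted p = 0.000231 and 0.000836, each probe set tested on its own).

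Other members behaved alike in part. Hmmr, a spindle-binding receptor, differed by 0.14 on its brightest probe set and rose by 0.59 to 0.79 on 3 of the other 4 in wild-type livers on day 7. On the remaining Hmmr probe set the difference was 0.10 (adjusted p = 0.833). Kif2c, a microtubule depolymerase, rose by 0.53 on a second probe set against -0.03. Aurkb, Cenpf and Tpx2 each rose in wild-type livers on a probe set other than the brightest, by 0.36, 0.29 and 0.32. In humanized livers Hmmr rose by 0.69 on 1 probe set and differed by 0.05 to 0.37 on the others, which did not pass. The probe sets named for Kif2c, Aurkb, Cenpf and Tpx2 differed there by 0.19, 0.13, 0.06 and 0.20, and none passed. The reverse, a call on the brightest probe set alone, held for Top2a, whose other 2 differed by 0.02 and -0.17 in wild-type livers on day 7. It also held for Cdca3, as given above. Nusap1, Bub1 and Anln passed in wild-type livers on the brightest alone. Tested on its own, their other probe set differed by 0.13, 0.19 and 0.34 (adjusted p = 0.748, 0.381 and 0.0859). Ttk did so in humanized livers, with 0.06 on the other (adjusted p = 0.831). A second Nek2 probe set rose by 0.38 in wild-type livers, and the others differed by 0.01 and 0.07. Taking all 113 probe sets of the 49 members, 32 rose and 0 fell in wild-type livers on day 7, against 1.07% of all 34945 probe sets, and 21 rose and 0 fell in humanized livers, against 1.21%. The 32 belonged to 26 members and the 21 to 18. In the knockout 0 probe sets of the members were called on day 7, where 0.00286% of all probe sets were called higher.

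Further genes of the same phases were taken from a list of 60 other G2/M genes, of which 34 were tested. On day 7, 5 rose and 0 fell in wild-type livers, where 2.11% of tested genes rose and 0.610% fell. In humanized livers 6 rose and 1 fell, against 2.82% and 2.02% of tested genes, and the medians were 0.16 and 0.08. Ckap2, a mitotic spindle protein, rose most, by 1.03 (adjusted p = 7.62e-11) and 0.78, followed in wild-type livers by the condensin subunit Ncapg2 at 0.80 and the centromere protein Cenpk at 0.70. Ccnf, cyclin F, fell by 0.57 in humanized livers on day 7, and on day 1 by 0.62 in wild-type and 0.80 in humanized livers. Pttg1 (securin), which holds separase in check until anaphase, fell by 0.19 and 0.23 on day 1. In the knockout 0 of the 34 were called on day 7, where 0.0158% of tested genes were called.

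Genes of DNA replication were called in larger part on day 1. Of 21 tested S phase genes, 13 rose in wild-type and 9 in humanized livers on day 1, and 8 and 7 on day 7, and 0 fell. Of tested genes, 5.02% and 3.95% rose on day 1 and 2.11% and 2.82% on day 7. The helicase subunits Mcm5 and Mcm6 rose by 1.38 and 1.25 in wild-type livers on day 1. On day 7 Mcm6 rose by 1.22 and 1.49, and 0 of the 21 were called in the knockout, where 0.0158% of tested genes were called. The S phase median was 0.41 on day 1 and 0.31 on day 7 in wild-type livers, while the median of the 49 members was 0.21 and 0.40. This order in time was not tested as such.

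Of 10 tested genes of the DREAM complex and CDK inhibitors, which hold the cycle back, 1 rose and 1 fell in wild-type livers on day 1, where 5.02% of tested genes rose and 6.97% fell. In humanized livers 2 rose and 3 fell, against 3.95% and 7.78% of tested genes. Rbl1, the pocket protein p107 and itself a target of E2F factors, rose by 0.62 and 0.56, and Cdkn1b (p27) fell by 0.26 and 0.33. Cdkn1a (p21) fell by 0.99 in humanized livers. On day 7, 0 were called in wild-type livers, and Rbl1 (0.64) and Cdkn1b (-0.28) in humanized livers.

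Markers of other cell types were read beside the day 7 result. In wild-type livers 0 genes were called in the lists for hepatocytes, T and NK cells, B and plasma cells, Kupffer cells, neutrophils, erythroid cells, endothelium, stellate cells, bile duct and acinar cells. Of all tested genes, 2.11% rose and 0.610% fell in wild-type livers on that day. The mean level of the 8 T and NK cell markers was 4.92 to 5.02 in treated against 4.95 to 5.08 in control wild-type livers. That of the 6 B and plasma cell markers was 5.56 to 5.82 against 5.37 to 5.54, so that treated livers lay above controls there. In humanized livers these levels were 5.07 to 5.19 against 5.02 to 5.18 and 5.60 to 5.98 against 5.31 to 5.67. Kupffer cell markers stood at 7.84 to 8.34 in treated and 7.93 to 9.38 in control wild-type livers. In humanized livers 2 of 7 hepatocyte markers fell, Apoa1 and Fgb by 0.15 each, and 3 of 8 stellate markers fell, Lrat by 0.95. Of all tested genes, 2.02% fell there. The part of B cells or of other cells in the rise of the members was not tested.

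Control livers also differed slightly. Between the controls of the latest days (91 and 119) and the earliest (1 and 7), over the 3 genotypes, 11 of 49 members were higher and 0 lower with no filter, against 10.2% and 9.04% of all genes. Of the 29 tested, 7 were higher and 1 lower, against 14.6% and 13.4% of tested genes. Mki67 was higher by 0.29 (adjusted p = 0.00627), Ccnb2 by 0.26 and Mad2l1 by 0.16 (adjusted p = 0.00194), which is small beside their rises on day 7. Between genotypes, controls of the knockout differed from wild-type controls in 3 of 29 members, against 22.4% of tested genes, and those of humanized mice in 2, against 28.1%, and with no filter in 3 and 2 of 49. Ect2 was higher in untreated knockout livers by 0.53 ± 0.10 (adjusted p = 1e-05) and in untreated humanized livers by 0.32 ± 0.10 (adjusted p = 0.00685).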

How the data were processed

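Liver RNA of male mice was measured with Affymetrix arrays, grouped by the genotype, treatment and time point that the labels give. Replicates are separate animals per the labels. The deposited values are log2 expression made with RMA, per the submitters' processing notes, whose version is not given in the sources used here, and RMA compresses weak signals. The members and gene lists were chosen with earlier results of these data known. Only probe sets with 1 gene symbol in the platform annotation were used. Arrays of animals 6026 and 6030 were averaged, which left 166 samples. Genes had to exceed the median of the array on 3 arrays or more to enter the test. The limma package 3.58.1 (lmFit, then eBayes; R 4.3.3) fitted 36 group means, with p-values adjusted by Benjamini-Hochberg within each of 33 contrasts, and called at 0.05. All groups share 1 estimate of spread (130 residual degrees of freedom). All 49 members could be named, with values per animal for Mki67, Top2a, Cdk1, Ccnb2, Ccna2, Plk1, Aurkb, Birc5, Bub1 and Foxm1, and for the 6 called members with the largest differences on days 1 and 7. Up to 4 called genes were named of the other G2/M genes and up to 2 of the other lists. The fit was tested on simulated data. Promoters are RefSeq sequences of build GRCm38.p6. No window was used for Aurkb, Ccna2, Dlgap5, Foxm1, Incenp, Kif20a, Pbk, Shcbp1, Smc4 and Tpx2. Alternatives changed the normalization, filter, probe sets, weights, prior, arrays fitted and animals. The fits of each probe set alone and of all genes with 1 animal left out were chosen after seeing the data.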

Additional observations from a re-analysis of the deposited data

Results flagged for a closer look

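Single animals stood apart from the others of their group by Dixon's test of the gap over the range. Over 114 groups of 4 to 10 samples checked for the mean level and 10 genes, 6 values stood apart. That is about as many as chance gives, at about 1 in 20 groups. Checks of several genes in the same animal are not independent of each other. For the mean level of the 49 members, over 34 groups, these were treated humanized animal 6003 of day 1 at 5.47 (the next at 5.13) and control knockout animal 3025 of day 91 at 5.16 (the next at 4.98). Animal 6003 also stood apart for Ccnb2, at 5.26. Treated wild-type animal 2004 of day 1 stood apart for Cdca3 at 6.26, for Ect2 at 5.73 and for Plk1 at 5.48. The report gives the day 1 counts without these treated animals.

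The effect of phenobarbital differed between genotypes or days by a direct test for 25 values. Knockout minus wild type over the dosing days gave Ccnb2 -0.49, Ccna2 -0.33, Aurka -0.21, Nek2 -0.43, Mad2l1 -0.33, Cdca3 -0.34, Birc5 -0.42, Ect2 -1.14, Shcbp1 -0.36 and Smc4 -0.20. Humanized minus knockout gave Cdk1 0.30, Ccnb2 0.43, Ccna2 0.29, Nek2 0.39, Mad2l1 0.25, Cdca3 0.40 and Ect2 1.07. Knockout minus wild type gave Ect2 -1.28 on day 1, and Ccnb2 -1.64, Mad2l1 -0.66, Cdca3 -0.94 and Ect2 -1.58 on day 7. The day 7 effect exceeded the day 1 effect by 1.67 for Ccnb2 and 0.95 for Cdca3 in wild-type mice, and by 0.66 for Nek2 in humanized mice. Some differences between genotypes had an adjusted p above 0.05 with 1 animal left out. In knockout minus wild type over the dosing days this held for Aurka without any 1 of 23 animals. On day 7 it held for Mad2l1 without any 1 of 5, Ect2 without any 1 of 3 and Cdca3 without any 1 of 2. On day 1 it held for Ect2 without any 1 of 2. In humanized minus knockout it held for Cdk1 without any 1 of 6 and for Ccna2 without any 1 of 5. These values share treated and control groups and are not independent of each other.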

How the results depend on the processing

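Counts of called members were recomputed with 1 choice changed at a time. Of 33 counts, 33 stayed within 1.5 times under a trended and robust prior, 32 under quantile normalization (wild type day 14 gave 1), 26 with no filter, 25 each with the mean of a gene's probe sets and with array weights, 18 with only the compared groups and 17 with a filter requiring 50% of the arrays. Of the 99 called differences of single members, 0 changed sign under these settings (44 could be fitted with the 50% filter). Differences that were not called were not followed. With only the compared groups, wild type gave 0 on day 1 and 1 on days 14 and 28, humanized gave 1, 0 and 0 on days 1, 14 and 91, knockout gave 0 on days 1, 28 and 91, humanized minus wild type gave 1 over the dosing days, knockout minus wild type gave 0 on days 1 and 7, the day 7 minus day 1 effects gave 0 and 0, and control humanized minus wild type gave 4. Fewer samples estimate the spread in that fit. With no filter, wild type gave 28 over the dosing days, 20 on day 7 and 1 on days 14 and 28, and humanized day 91, knockout day 28 and the humanized day 7 minus day 1 effect gave 0. Above the median on at least 50% of the arrays, where 17 members are tested, the dosing means gave 7 and 7, wild type 3, 5 and 1 on days 1, 7 and 28, humanized 2, 4, 1 and 1 on days 1, 7, 14 and 28, knockout minus wild type 4 over the dosing days, 0 on day 1 and 1 on day 7, humanized minus knockout 4, the wild-type day 7 minus day 1 effect 0, control humanized minus wild type 1 and late minus early controls 4. The mean of probe sets gave wild type 1 on days 14 and 28, humanized 8 on day 1, knockout 1 on day 91, humanized minus wild type 1, day 7 minus day 1 effects 4 and 0, and control humanized minus wild type 6. Array weights gave wild type 20 on day 7, humanized 1 and 0 on days 14 and 91, humanized minus wild type 1, knockout minus wild type 9 on day 7, day 7 minus day 1 effects 6 and 2, and control humanized minus wild type 4. Without the near-identical knockout arrays, days 28 and 91 gave 0 and 1. With each probe set on its own, wild type had 15, 26 and 31 members with a called probe set on day 1, day 7 and over the dosing days, and humanized had 8 on day 1 and 31 over the dosing days. The cause of these shifts was not tested.

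With 1 animal left out, 901 of 988 counts stayed within 1.5 times. The ranges were 1 to 11 for wild type day 1, 1 to 2 for day 14, 0 to 2 for day 28, 1 to 3 for its day 7 minus day 1 effect, 2 to 7, 1 to 2 and 0 to 1 for humanized days 1, 14 and 91, 0 to 2 for its day 7 minus day 1 effect, 0 to 1, 0 to 3 and 1 to 2 for knockout days 1, 28 and 91, 0 to 1 and 1 to 6 for knockout minus wild type on days 1 and 7, 0 to 1 for humanized minus wild type over the dosing days, and 2 to 4 for control humanized minus wild type. With no filter they were 1 to 19 for wild type and 1 to 8 for humanized day 1. Counts on day 7 (9 to 14 in wild type, 9 to 12 in humanized) and over the dosing days (16 to 18, 15 to 19 and, in the knockout, 4 to 7) moved less than that. No paired analysis was possible because the labels give each animal a number of its own. Low signal limits the 20 dim members, whose differences RMA understates, and groups of 3 to 5 animals limit the precision.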
